A study of Mus musculus with 34 samples.

Results

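Voltage-gated and potassium channel genes were followed in 2 brain regions, hippocampus and neocortex, of male mice given kainate, nicotine or saline. The set holds each gene whose single symbol in the array annotation begins with Kcn, with Scn or Hcn and a digit, with Cacn, or with Clcn. It takes in 88 probe sets of 68 genes, out of 8251 genes that had a probe set with a single symbol. A gene with several probe sets, of which there were 18, was represented by the probe set with the highest mean log2(signal + 16) over all 34 arrays. The mice received 3 intraperitoneal injections, 2 h apart, on postnatal day 23, and survivors were killed on day 30. The agents were kainate at 15 mg/kg, nicotine at 10 mg/kg, or saline, the vehicle of both drugs, alone. Each region gave 6 saline, 5 kainate and 6 nicotine arrays, labelled as biological replicates, from the same 6, 5 and 6 mice. The strain and which 2 arrays came from 1 mouse are not given in the sources used here.

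Channel genes of this kind encode the proteins that set the electrical behaviour of neurons. Pore-forming sodium (Scn) and calcium (Cacna1) subunits pass inward current that starts the action potential and releases transmitter, while voltage-gated potassium subunits (Kcna, Kcnc, Kcnd, Kcnq, Kcnh) end it. Inward rectifiers (Kcnj) and K2P leak channels (Kcnk) hold the resting potential, calcium-activated channels (Kcnma, Kcnn) follow a burst, Hcn channels carry a current switched on by hyperpolarization, and Clcn genes encode chloride channels and exchangers. Auxiliary subunits (Kcnab, Kcne, Cacnb, Cacna2d, Cacng) form no pore and tune the gating or surface delivery of others. Kainate is an agonist of glutamate receptors that causes seizures which start in or involve the hippocampus, and nicotine at a high dose is also a convulsant.

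The upstream sequences of 2 genes are printed here, because Kcne1l showed the largest kainate difference of the channel genes in hippocampus and Kcnj9 the clearest lower level in hippocampus than in neocortex. Both are the 250 bases before the annotated start in RefSeq's GRCm38.p6 annotation, 5′ to 3′ on the coding strand, with letter matches of the motifs below in capitals. Kcne1l lies on the minus strand of chromosome X and its window is chrX:142306199-142306448. Kcnj9 lies on the minus strand of chromosome 1 and its window is chr1:172329323-172329572. No other annotated gene overlapped either gene.
Kcne1l: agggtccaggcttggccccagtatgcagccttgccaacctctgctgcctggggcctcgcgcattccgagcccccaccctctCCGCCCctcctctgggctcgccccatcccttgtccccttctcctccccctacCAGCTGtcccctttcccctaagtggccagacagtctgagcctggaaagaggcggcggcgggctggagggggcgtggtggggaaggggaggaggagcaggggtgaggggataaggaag
Kcnj9: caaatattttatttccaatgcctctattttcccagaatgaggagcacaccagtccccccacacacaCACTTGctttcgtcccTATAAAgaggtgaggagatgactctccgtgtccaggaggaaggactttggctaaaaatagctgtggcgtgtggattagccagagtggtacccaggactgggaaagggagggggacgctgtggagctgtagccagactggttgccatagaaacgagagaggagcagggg
The search used the GC box GGGCGG, the E-box CANNTG, the TATA box TATAAA, the CRE TGACGTCA and the AP-1 motif TGANTCA on both strands. The Kcne1l window held 1 GC box and 1 E-box, and the Kcnj9 window 1 E-box and 1 TATA box, none overlapping another. Of the 32851 windows in the table, 32.7% held a GC box, 66.2% an E-box, 12.4% a TATA box, 1.55% a CRE and 6.75% an AP-1 motif. Of the 70 windows that belonged to 53 of the 68 channel genes, the shares were 45.7%, 72.9%, 4.29%, 1.43% and 1.43%. These matches describe letters and are not measured binding sites.

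The values are MAS5 signals of Affymetrix arrays, a linear brightness for each probe set, so levels are compared between arrays and not between genes. Array medians lay between 376 and 439 in all groups. A probe set was tested where its mean log2(signal + 16) was above the 30th percentile, which corresponds to a signal of 131 in hippocampus and 128 in neocortex. This left 49 channel genes in hippocampus, 53 in neocortex and 50 over all arrays. A gene is said to be called, higher or lower, where limma gave a Benjamini-Hochberg adjusted p under 0.05 over all 8695 probe sets tested. Differences are log2 differences of signal + 16 with their standard error (SE), which understate the fold of dim genes. Saline replicate 6, kainate replicate 5 and nicotine replicate 6 of the neocortex stood apart from their groups along 1 shared axis. Their scores were 30.9, 24.9 and 28.1, against at most 4.1 for other arrays. Counts of called channel genes that use neocortex, and the calls that changed, are therefore also given without them. As a check of the labelled tissue, 3 of 4 CA pyramidal and 2 of 5 dentate granule cell markers were called higher in saline hippocampus than in saline neocortex.

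The 68 genes fell into 13 families, and each is described first by the gene whose probe set had the highest mean signal in it, with mean signal ± SD over 6 saline arrays of each region. This order ranks probe sets, which differ in how they hybridise, and not the expression of the genes. Among voltage-gated potassium pore subunits, Kcna1, a Shaker-type subunit of axons, had signals of 4006 ± 781 in saline neocortex and 3159.8 ± 639 in saline hippocampus. Kcnd2, an A-type subunit of dendrites, stood at 422 ± 90.6 in saline neocortex and 625 ± 120.3 in saline hippocampus. Kcnh2, the ether-a-go-go related ERG subunit, stood at 1166 ± 254 in saline neocortex and 881 ± 161 in saline hippocampus, and Kcnq1 at 909.9 ± 149 in saline neocortex and 826 ± 198 in saline hippocampus. Of these, Kcnd2 was the one with the higher mean in hippocampus, a difference that was not called (log2 difference 0.56 ± 0.21, adjusted p = 0.0889).

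Other potassium channel families are given in the same way. Kcnma1, the large-conductance calcium-activated pore, had signals of 4753 ± 1071 in saline neocortex and 4138 ± 650.1 in saline hippocampus. Kcnj4, an inward rectifier, stood at 2199 ± 524 in saline neocortex and 1408 ± 163 in saline hippocampus, and the leak channel Kcnk1 at 3527 ± 691 in saline neocortex and 2749 ± 589 in saline hippocampus. All 3 had the lower mean in hippocampus, and the Kcnj4 difference was called. The Kv beta subunit Kcnab2 ran the other way, with 5153 ± 609.5 in saline neocortex and 8369 ± 1129.6 in saline hippocampus.

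For sodium, calcium, pacemaker and chloride channels these genes were Scn8a, Cacna1a, Cacna2d3, Hcn2 and Clcn3. Scn8a, a main sodium channel of the axon initial segment, had signals of 3029 ± 324 in saline neocortex and 2869 ± 575 in saline hippocampus. Cacna1a, the P/Q-type pore of presynaptic terminals, stood at 2371 ± 383 in saline neocortex and 1501 ± 469 in saline hippocampus, and the auxiliary subunit Cacna2d3 at 3026 ± 389 in saline neocortex and 3310.2 ± 405 in saline hippocampus. Hcn2, a pacemaker-current subunit, stood at 5241 ± 559.7 in saline neocortex and 4399.6 ± 1419 in saline hippocampus, and Clcn3, an endosomal chloride exchanger, at 7670.4 ± 1224 in saline neocortex and 7349 ± 569.9 in saline hippocampus. The Cacna1a difference between regions was called and the others of these 5 were not.

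At the other end, 15 of the 68 genes were above the filter nowhere. They were Kcna5, Kcna7, Kcne1, Kcnj1, Kcnj2, Kcnj5, Kcnj12, Kcnj15, Kcnmb1, Scn3a, Scn7a, Scn9a, Scn10a, Cacna1s and Cacng1. Several of these are best known from muscle, kidney or peripheral sensory neurons. Cacna1h, Kcnj8 and Kcnk3 passed the filter in neocortex alone, and Kcnu1 passed it in neocortex and over all arrays. Nothing is said of change for a gene that was not tested, with the exception of Kcnk3 in a fit without the filter.

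In hippocampus, kainate was followed by a higher level of Kcne1l and a lower level of Kcnab2. These were 2 of the 49 tested channel genes, 4.08%, against 2.79% of all probe sets (1.84% higher and 0.955% lower), so the number of channel genes called is close to the background. They were also the 2 channel genes whose kainate and saline arrays did not overlap, as in 3.5% of all probe sets. Kcne1l, also named Kcne5, encodes a single-pass beta subunit of voltage-gated potassium channels. Its saline signals were 126 (lowest), 248 (median) and 430.3 (highest). In the kainate hippocampus the 5 arrays read 855, 1219.5, 1015, 989.6 and 1067. Every kainate array was above every saline array, and the group means were 1029 ± 132 against 262 ± 107 (SD, n = 5 and 6). The log2 difference was 1.99 ± 0.29, adjusted p = 0.000163, a 3.98-fold rise on this scale.

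Kcnab2 encodes Kv beta2, a cytoplasmic subunit that binds Kcna channels and helps take them to the axon. Its saline hippocampal signals were 7209.8 (lowest), 7911 (median) and 10268 (highest), and its kainate signals were 6831, 6555, 6632, 5935 and 6372. All kainate arrays lay below all saline arrays, although the gap was small, and the log2 difference was -0.36 ± 0.08, adjusted p = 0.017. The second Kcnab2 probe set gave -0.37 with adjusted p = 0.0121. Leaving out kainate replicate 4, the lowest array, moved the adjusted p to 0.0591, so the call rests in part on that array. Kcnab2 overlaps Nphp4 in the annotation, and which gene's transcripts the probes read was not tested.

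**Figure D1:**
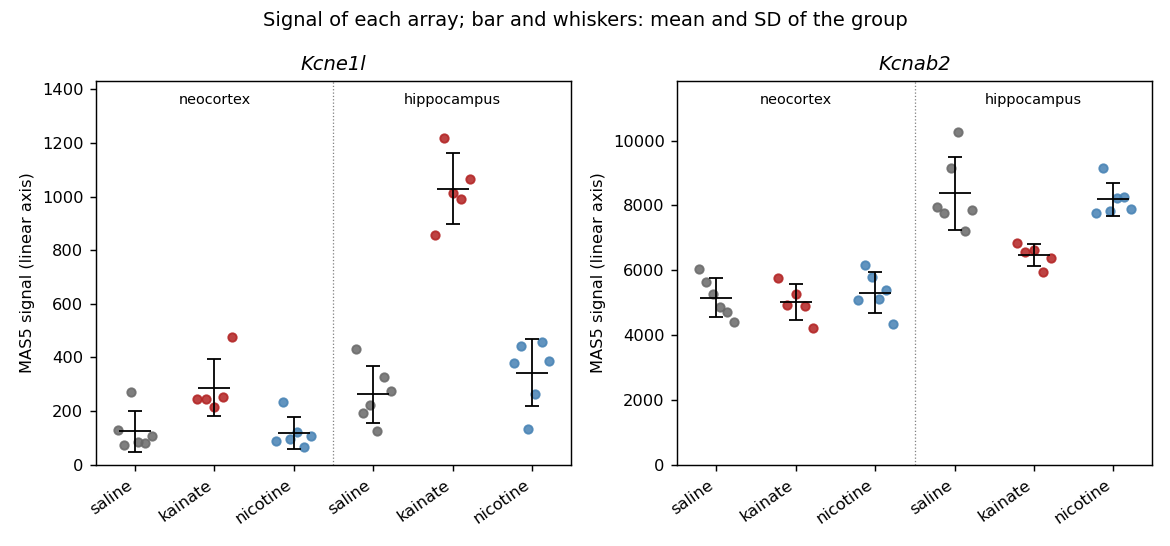
MAS5 signal (linear axis) of Kcne1l (left) and Kcnab2 (right) on each of the 34 arrays, by treatment and region; points are arrays, the long bar is the group mean and the whiskers are 1 SD. The 5 kainate hippocampal arrays of Kcne1l sit between 855 and 1219.5, above all other groups, and those of Kcnab2 lie below all saline and nicotine hippocampal arrays.

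Marker genes of other cell types also differed between these arrays. All 11 tested microglia and macrophage markers were called higher in kainate than in saline hippocampus, with a summed signal of 17665 to 20364 over saline and 49036 to 78121 over kainate arrays (13 measured markers, none at 0). Astrocyte markers were higher in 5 of 9, with sums of 97792 to 111060 against 152920 to 185200. Both glial sums thus stood higher on every kainate array than on every saline array. Astrocyte markers ran from -0.16 to 2.23 with a median of 0.55, and Apoe had the highest signal among them. The astrocyte sum does not describe each marker of that list. Of the neuron markers 0 of 10 were called, with sums of 107300 to 126760 against 104900 to 114300. Of 8 interneuron markers Sst and Slc32a1 were lower, with sums of 30334 to 34026 against 24610 to 28005. Interneuron markers ran from -0.77 (Sst) to 0.31 with a median of -0.06, so their lower sum does not describe that list as a whole. CA pyramidal cell markers were lower in 1 of 4 and dentate granule cell markers in 1 of 5, with sums of 23024 to 25929 against 16456 to 19631 and of 4022 to 4786 against 2865 to 3839. The called genes were Cpne6 and Calb1. CA pyramidal markers ran from -0.47 (Cpne6) to -0.22. Dentate markers ran from -0.63 (Calb1) to 0.41 with a median of -0.01, so their lower sum does not describe the list as a whole. Oligodendrocyte markers (7 tested), endothelial and vascular markers (8), choroid plexus markers (3) and thalamus and striatum markers (3) had none called. In bulk tissue, fewer cells of a type and less RNA per cell cannot be told apart. The part of these shifts in the Kcne1l and Kcnab2 differences was not tested.

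The remaining channel genes did not pass in kainate hippocampus. The next smallest adjusted p values belonged to the calcium channel subunits Cacna2d3 (log2 difference -0.35 ± 0.12, adjusted p = 0.138) and Cacng2 (-0.46 ± 0.18, adjusted p = 0.208). Of the 49 tested genes 26 lay above 0 and 23 below (51.9% of all probe sets lay above), with a median of 0.02 against 0.01 over all probe sets. Centring each array on its median, which moved the median of all probe sets by -0.11, turned this into 20 above 0. It also turned the calls over all probe sets from 160 higher and 83 lower into 130 higher and 313 lower, while Kcne1l (1.88, adjusted p = 0.000558) and Kcnab2 (-0.47, adjusted p = 0.00306) stayed called.

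By family, the Kcna pore subunits had 5 of 5 tested genes above 0 in kainate hippocampus (4 of 5 under median centring), with a smallest adjusted p of 0.467. They ran from 0.11 (-0.03 without saline replicate 2 and 0.21 without kainate replicate 3) in Kcna2 to 0.72 (0.24 without saline replicate 2) in Kcna6, so both ends of the range depend on single arrays. The 3 Kv beta subunits were all below 0 under each scaling tried, from -0.36 in Kcnab2 to -0.12 (-0.30 without kainate replicate 4 and 0.04 without kainate replicate 2) in Kcnab3. No pore subunit passed the test. Of the silent and ether-a-go-go subunits, Kcnh1 had the largest difference, 0.35 (0.14 without saline replicate 4 and 0.58 without saline replicate 5). Of the 5 inward rectifiers, Kcnj6 had the largest, 0.47 (0.16 without saline replicate 2), and of the 4 leak channels Kcnk7, 0.36 (0.09 without kainate replicate 4 and 0.56 without kainate replicate 3). None of these genes was called apart from Kcnab2.

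The 3 tested calcium-activated potassium channel genes lay between -0.17 and 0.07, with 1 array left out at a time. Of the 5 calcium channel pores 4 were below 0 (5 under median centring, and Cacna1c crossed 0 on leaving out single arrays), and the lowest was Cacna1g at -0.48 (-0.14 without kainate replicate 3). No calcium channel pore was called. Of the sodium channel genes Scn1a stood at -0.15 (-0.26 without kainate replicate 1 and -0.07 without kainate replicate 5), and of the Hcn genes Hcn2 at 0.16 (0.07 without saline replicate 1 and 0.30 without saline replicate 5) and Hcn3 at 0.27 (0.15 without kainate replicate 4). Chloride channel genes ran from -0.19 in Clcn3 to 0.19 (0.12 without saline replicate 1 and 0.30 without kainate replicate 1) in Clcn7. A second Clcn7 probe set went the other way in hippocampus. Its kainate difference was 0.51 in neocortex, and hippocampus minus neocortex was -0.69, neither called. The smallest adjusted p in these families was 0.4 (Clcn3).

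In the neocortex of the same treatment, limma called 0 of 53 tested channel genes between kainate and saline, against 0.0115% of all probe sets. At an unadjusted p under 0.05 there were 5 channel genes (9.43%), against 5.57% of probe sets. Kcne1l had the smallest adjusted p among them. Its saline neocortical signals were 72.7 (lowest), 94.8 (median) and 272 (highest), and its kainate signals were 245, 246, 215, 253 and 476. Its saline and nicotine medians lay below the neocortical filter signal of 128. The gene passed that filter through its kainate arrays, so its place among the tested genes is not independent of this difference. A single saline array overlapped the kainate arrays, and the log2 difference was 1.18 ± 0.34, adjusted p = 0.649. The highest kainate value came from replicate 5, 1 of the 3 arrays that stood apart.

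Kcnc1, a fast delayed rectifier of Kv3 type, was next in kainate neocortex, with saline signals of 77.3 (lowest), 242 (median) and 340.1 (highest) and kainate signals of 268, 423, 366, 397 and 469. The groups overlapped, and the log2 difference was 0.96 ± 0.31, adjusted p = 0.788. Kcns1, a silent subunit that modifies other Kv channels, read 392 (lowest), 632 (median) and 700.0 (highest) in saline and 317, 496, 325, 426 and 578 in kainate neocortex. Its kainate arrays were mostly lower and overlapped the saline arrays (-0.48 ± 0.18, adjusted p = 0.819). Without the 3 arrays that stood apart, Kcne1l was 0.98 ± 0.38, Kcnc1 0.68 ± 0.31 and Kcns1 -0.56 ± 0.19, none of them called. The number of channel genes called stayed at 0 here, in the other drug comparisons of neocortex and in both interactions.

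Whether the kainate difference was larger in hippocampus than in neocortex was tested directly as an interaction over 34 arrays. It was called for 0 of 50 channel genes, against 0.794% of probe sets. At an unadjusted p under 0.05 there were 4 channel genes (8%), against 8.98% of probe sets. The interaction for Kcne1l was 0.81 ± 0.45, adjusted p = 0.626 and that for Kcnab2 -0.33 ± 0.13, adjusted p = 0.404. The interaction of the second Kcnab2 probe set was -0.38 ± 0.11, adjusted p = 0.126, not called. For Kcna4 it was 1.03 ± 0.43, adjusted p = 0.437 and for Kcns1 0.71 ± 0.31, adjusted p = 0.495. So Kcne1l and Kcnab2 passed in 1 region and not in the other, and a difference of their kainate response between regions was not shown. Over all probe sets the called interactions were 63 above and 6 below 0, and 35 and 12 under median centring.

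Kainate was also set against nicotine, with the same kainate arrays, so that the 2 kainate contrasts are not independent. In hippocampus, 2 of 49 channel genes were called, 4.08%, against 2.42% of all probe sets (2.04% higher and 0.38% lower with kainate), and they were Kcne1l and Kcnab2. Kcne1l read 132 (lowest), 384 (median) and 457 (highest) in nicotine hippocampus, below all kainate arrays (kainate minus nicotine 1.63 ± 0.29, adjusted p = 0.00148). Kcnab2 read 7756 (lowest), 8062 (median) and 9157 (highest) there, above all kainate arrays (-0.34 ± 0.08, adjusted p = 0.0306). The Kcnab2 call was lost on leaving out any 1 of kainate replicates 2, 4 and 5 or nicotine replicates 2, 4 and 5, with an adjusted p of up to 0.0985. Quantile normalization gave 0.0522. The second Kcnab2 probe set was called too (-0.35 ± 0.08, adjusted p = 0.0238), with overlapping groups.

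Beside these, Kcnh2, the ERG subunit, named after its values were seen, also had kainate and nicotine hippocampal arrays that did not overlap. That made 3 channel genes (6.12%), against 2.92% of all probe sets. Kcnh2 read 1083 (lowest), 1145 (median) and 1389 (highest) with nicotine and 1081, 836, 1032, 688 and 894 with kainate. The gap between the groups was narrow, and the difference was not called (-0.41 ± 0.14, adjusted p = 0.167). In neocortex, kainate against nicotine gave 0 of 53 channel genes called, against 0.0345% of probe sets. At an unadjusted p under 0.05 there were 5 (9.43%), against 3.99% of probe sets. The smallest adjusted p values were those of Kcne1l (1.20 ± 0.34, adjusted p = 0.748), Kcna4 (-0.75 ± 0.29, adjusted p = 0.998) and Kcnk2 (-0.20 ± 0.08, adjusted p = 0.998). Of these, Kcne1l had passed the neocortical filter through its kainate arrays, as stated above.

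Nicotine against saline gave no called channel gene in either region. In hippocampus limma called 0 of 49, against 0% of all probe sets. At an unadjusted p under 0.05 there were 4 channel genes (8.16%), against 5.8% of probe sets. Kcnh2 read 728 (lowest), 816 (median) and 1170.1 (highest) in saline hippocampus, against the nicotine signals given above. The groups overlapped (0.45 ± 0.13, adjusted p = 0.851). Kcnc1 stood at 1.02 ± 0.36, adjusted p = 0.851, and Kcna2, a Shaker-type axonal subunit, at 0.43 ± 0.18, adjusted p = 0.851. Of the 49 genes 37 lay above 0 (53% of all probe sets did), and 29 under median centring.

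The direction was shared within some families in nicotine hippocampus without any call. The nicotine and kainate differences in hippocampus use the same saline arrays, so a direction common to both is not an independent repeat. With nicotine all 5 Kcna genes lay above 0 under each scaling tried and on leaving out any 1 array. They ran from 0.13 (0.06 without saline replicate 1 and 0.21 without saline replicate 5) in Kcna1 to 0.79 (0.31 without saline replicate 2) in Kcna6, and without saline replicate 2 Kcna6 was no longer the highest. The 4 Kv3 and Kv4 genes lay above 0, up to 1.02 in Kcnc1, although Kcnd1 and Kcnd3 each fell below 0 without 1 array. Among the calcium channel pores the lowest was Cacna1g, at -0.46 (-0.21 without nicotine replicate 4), and the highest Cacna1b, at 0.14 (0.21 without nicotine replicate 6). Kcne1l, called after kainate, stood at 0.36 (0.19 without saline replicate 4 and 0.60 without nicotine replicate 3) after nicotine, and Kcnab2 at -0.02 (-0.07 without saline replicate 5 and 0.04 without saline replicate 4).

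In nicotine neocortex limma called 0 of 53 channel genes, against 0% of probe sets. At an unadjusted p under 0.05 there were 8 channel genes (15.1%), against 9.6% of probe sets. Kcnk7, a K2P gene, read 216 (lowest), 329.6 (median) and 695 (highest) in saline and 410.3 (lowest), 532 (median) and 595 (highest) in nicotine neocortex (0.53 ± 0.20, adjusted p = 0.418). Scn8a read 2444 (lowest), 3118 (median) and 3359 (highest) in saline and 2126 (lowest), 2534 (median) and 2991 (highest) with nicotine (-0.25 ± 0.10, adjusted p = 0.418). Groups overlapped in both genes, with nicotine arrays higher for Kcnk7 and lower for Scn8a. Cacna1a stood at -0.28 ± 0.11, adjusted p = 0.429.

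Across the other families in nicotine neocortex, calcium channel pores lay below 0 in 5 of 6 and inward rectifiers in 5 of 6. The lowest were Cacna1h at -0.83 and Kcnj8 at -0.62 (-0.33 without nicotine replicate 1). Over all 53 tested channel genes 30 lay below 0 and 23 above, with a median of -0.05 against 0.01 over all probe sets. Most nicotine arrays of Cacna1h lay below the neocortical filter signal of 128 and most saline arrays above it. Its place among the tested genes is thus not independent of this difference. Kcnj8 read 27.0 (lowest) to 238.7 (highest) with nicotine, also near that filter. Both Hcn genes lay below 0, Hcn2 at -0.21 and Hcn3 at -0.17 (-0.09 without saline replicate 4). A second Hcn2 probe set went the other way, at 0.11, so the Hcn2 direction depends on the probe set. All 4 Kv3 and Kv4 genes lay above 0, up to 0.67 (0.44 without saline replicate 3) in Kcnc1. Cacna1b, Cacna1c, Kcnj6, Kcnd1 and Kcnd3 each changed sign on leaving out single arrays. None was called. The interaction of nicotine with region was called for 0 of 50 channel genes, against 0% of probe sets. At an unadjusted p under 0.05 there was 1 (2%), against 3.77% of probe sets. The smallest adjusted p there was 0.994, a value that most channel genes shared. The 3 smallest unadjusted p belonged to Kcna6 (0.96 ± 0.45), Cacna2d1 (0.49 ± 0.27) and Kcnab3 (0.51 ± 0.29), and without saline hippocampus replicate 2 the Kcna6 interaction was 0.48.

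**Figure D2:**
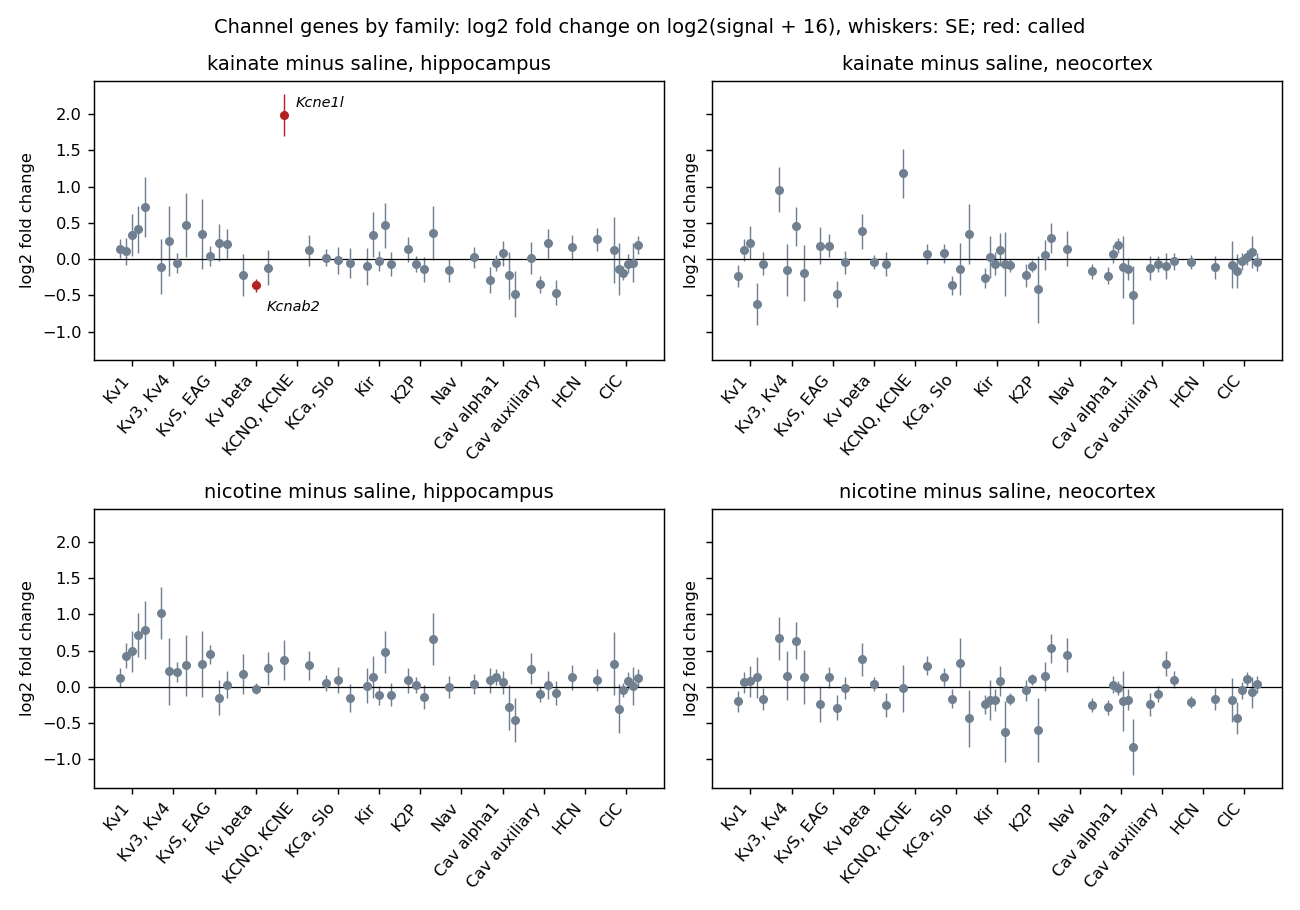
Log2 difference in signal + 16 of each tested channel gene, grouped by family along the x axis, for kainate and nicotine against saline in hippocampus (left) and neocortex (right); points are genes, whiskers are 1 SE and red marks an adjusted p under 0.05. Red points appear in the kainate hippocampus panel alone, for Kcne1l at 1.99 and Kcnab2 at -0.36.

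More channel genes were called between the regions than between the treatments, and most of them were lower in hippocampus. Comparing hippocampus with neocortex within each treatment, 14 of 50 channel genes (28%) were called in saline mice, 14 (28%) in kainate mice and 11 (22%) in nicotine mice. The background was 10.5%, 13% and 9.61% of all probe sets. Lower in hippocampus were 12, 11 and 9 of these genes (5.19%, 6.22% and 4.92% of all probe sets), and higher were 2, 3 and 2 (5.36%, 6.81% and 4.69%). Median log2 differences of the 50 genes were -0.29, -0.18 and -0.11, while all probe sets had medians of 0.00, 0.01 and 0.01. Arrays of the regions did not overlap for 7, 8 and 3 channel genes (14%, 16% and 6%), against 6.21%, 9.99% and 5.98% of probe sets. The nicotine share is thus at the background. The 3 comparisons share no arrays. Since both regions came from the same mice and the labels do not link their arrays, the fit treated hippocampal and neocortical arrays as independent.

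A group of 6 channel genes were called with all 3 treatments, 12% of those tested, against 5.06% of probe sets. They were Kcnab2 and Kcne1l, higher in hippocampus, and Kcnj9, Kcnj4, Cacng2 and Kcnh1, lower there. Of the 50 genes, 33 had the same sign in each of the 3 comparisons (66%, against 49.1% of probe sets), of which 27 were lower and 6 higher in hippocampus. Over all probe sets in kainate mice, 592 were called higher and 541 lower, and 405 and 673 under median centring, so that split moves with scaling. Within channel genes the 6 named directions did not change under any scaling tried.

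Marker genes of cell types moved between regions as well. Astrocyte markers were higher in hippocampus in 4, 5 and 4 of 9 (saline, kainate, nicotine), oligodendrocyte markers in 3, 4 and 3 of 7, and CA pyramidal cell markers in 3, 2 and 3 of 4. Neuron markers were lower in hippocampus in 2, 5 and 3 of 10, with summed saline signals of 107300 to 126760 against 121630 to 137090. Interneuron markers were lower in 3, 5 and 3 of 8 and higher in 1, and microglia markers were higher in 0, 10 and 0 of 11. Of the other lists, dentate granule cell markers were higher in 2 of 5 each time and lower in 0, 1 and 1, thalamus and striatum markers higher in 1 of 3 each time, choroid plexus markers higher in 1, 1 and 0 of 2, and endothelial markers called in 0 of 8. The part of these markers in the channel differences was not tested.

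Kcnj9 encodes Kir3.3, a subunit of the inward rectifiers that G proteins open below inhibitory receptors. In saline mice it read 2068 (lowest), 2205 (median) and 2326 (highest) in neocortex, and 869 (lowest), 1047 (median) and 1641 (highest) in hippocampus. In kainate mice it read 1958, 1982, 2163, 2164 and 2162 in neocortex, and 905, 873, 1169.7, 1369 and 987 in hippocampus, and in nicotine mice 1785 (lowest), 1847 (median) and 2553 (highest) in neocortex, and 773 (lowest), 1079.5 (median) and 1225 (highest) in hippocampus. Every hippocampal array lay below every neocortical array with each treatment, at about the same distance. The log2 differences were -0.995 ± 0.13, adjusted p = 3.21e-07 (saline), -0.98 ± 0.14, adjusted p = 2.09e-06 (kainate) and -0.94 ± 0.13, adjusted p = 1.06e-06 (nicotine). A dimmer second probe set of the gene gave -0.21, -0.08 and 0.18 and was not called.

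Kcnj4 encodes Kir2.3, a classical inward rectifier that holds neurons near rest. Saline mice gave 1595 (lowest), 2155 (median) and 2883 (highest) in neocortex, and 1100.1 (lowest), 1424 (median) and 1566 (highest) in hippocampus. Kainate mice gave 1767, 2098, 2116, 2221 and 2101 in neocortex, and 1110.2, 1126, 1653, 1707 and 1392 in hippocampus, and nicotine mice 1402 (lowest), 1994 (median) and 2455 (highest) in neocortex, and 1022 (lowest), 1293 (median) and 1668 (highest) in hippocampus. The regions did not overlap in saline and kainate mice, and did in nicotine mice. The differences were -0.61 ± 0.15, adjusted p = 0.0034, -0.57 ± 0.16, adjusted p = 0.0122 and -0.54 ± 0.15, adjusted p = 0.0117. The other 3 tested inward rectifiers were not called, and in saline mice all 5 lay below 0, up to -0.28 (-0.46 without saline hippocampus replicate 5 and -0.11 without saline hippocampus replicate 2) in Kcnj3.

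Cacng2 encodes stargazin, a protein of the calcium channel gamma family that carries AMPA-type glutamate receptors to the synapse. Its saline signals were 1725 (lowest), 2259.8 (median) and 3072 (highest) in neocortex, and 1104 (lowest), 1478 (median) and 2025 (highest) in hippocampus. With kainate they were 2175, 2263, 1968, 2043 and 2458 in neocortex, and 822, 1280.3, 949, 1049 and 1309 in hippocampus. With nicotine they were 2108 (lowest), 2419 (median) and 2696 (highest) in neocortex, and 1108 (lowest), 1312 (median) and 2084 (highest) in hippocampus. Regions overlapped in saline mice and were apart in kainate and nicotine mice, with hippocampus lower. The differences were -0.59 ± 0.15, adjusted p = 0.00559, -1.02 ± 0.16, adjusted p = 1.46e-05 and -0.77 ± 0.15, adjusted p = 0.000246.

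Kcnh1 encodes EAG1, a voltage-gated potassium channel of the ether-a-go-go group. Saline signals were 387 (lowest), 718 (median) and 914 (highest) in neocortex, and 80.6 (lowest), 182 (median) and 434 (highest) in hippocampus. Kainate signals were 818, 627, 508, 979 and 956 in neocortex, and 318, 387, 135, 251 and 179 in hippocampus, and nicotine signals 279 (lowest), 584 (median) and 1024 (highest) in neocortex, and 61.7 (lowest), 299 (median) and 543 (highest) in hippocampus. Of the 20 genes called with at least 1 treatment it had the largest difference toward neocortex, and the regions were fully apart in kainate mice alone. The differences were -1.76 ± 0.38, adjusted p = 0.00129, -1.60 ± 0.42, adjusted p = 0.00746 and -1.21 ± 0.38, adjusted p = 0.0369. The nicotine call was lost without the 3 neocortical arrays that stood apart (adjusted p = 0.103) and on leaving out any 1 of replicates 1, 3 and 4 of hippocampus or replicates 1, 3, 4, 5 and 6 of neocortex (adjusted p of up to 0.148).

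**Figure D3:**
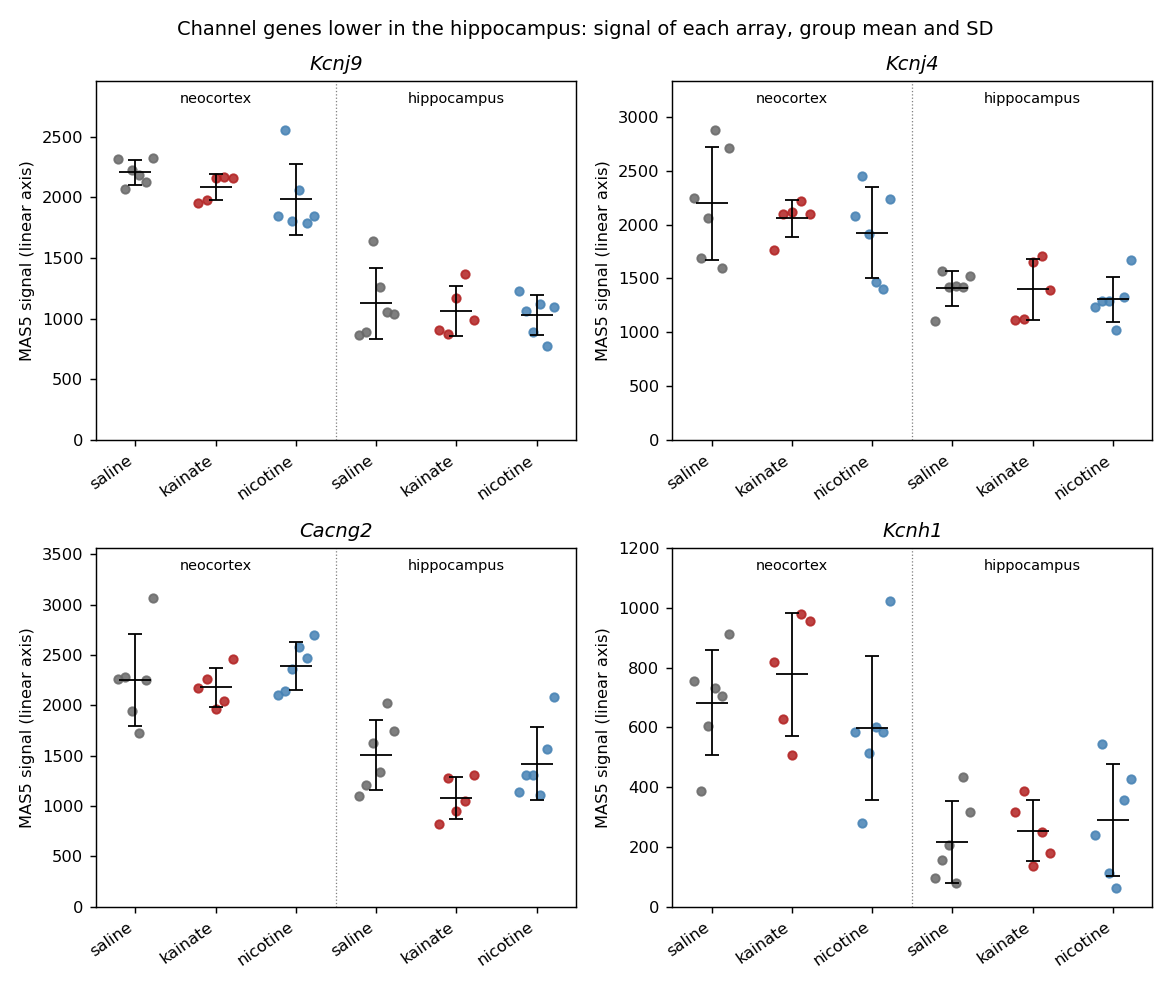
MAS5 signal (linear axis) of Kcnj9, Kcnj4, Cacng2 and Kcnh1 on each array, by region and treatment; points are arrays, the long bar is the group mean and the whiskers are 1 SD. Hippocampal Kcnj9 lies at or below 1641 and neocortical Kcnj9 at or above 1785, while the 3 other genes show some overlap.

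Kcnab2 was higher in hippocampus with every treatment. Neocortical saline signals were 4406 (lowest), 5069.9 (median) and 6037 (highest), kainate signals 5756, 4942, 5280.0, 4902 and 4213 and nicotine signals 4345 (lowest), 5239.8 (median) and 6174 (highest). Set against the hippocampal values above, no array of one region reached the other region with the same treatment. The differences were 0.70 ± 0.09, adjusted p = 2.55e-07 (saline), 0.37 ± 0.10, adjusted p = 0.0072 (kainate) and 0.63 ± 0.09, adjusted p = 2.04e-06 (nicotine). The kainate call moved to an adjusted p of 0.0635 under median centring.

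Kcne1l was higher in hippocampus too, by 1.02 ± 0.30, adjusted p = 0.0219 in saline, 1.83 ± 0.33, adjusted p = 0.000103 in kainate and 1.41 ± 0.30, adjusted p = 0.00115 in nicotine mice. Nicotine neocortical signals were 64.4 (lowest), 103 (median) and 235 (highest). The saline and nicotine neocortical medians of this gene lay below the neocortical filter signal of 128, so those differences rest on dim neocortical arrays. Regions overlapped in saline and nicotine mice and not in kainate mice. In a fit of the saline arrays alone the saline adjusted p was 0.0788. The saline call was also lost on leaving out any 1 of replicates 1 and 5 of hippocampus or replicates 2, 4 and 5 of neocortex (adjusted p of up to 0.0741).

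Shaker-type potassium genes were lower in hippocampus in part of the comparisons. Kcna2 gave 615 (lowest), 1029 (median) and 1138 (highest) in neocortex, and 354 (lowest), 607 (median) and 845 (highest) in hippocampus (saline, -0.67 ± 0.16, adjusted p = 0.00456). With kainate it gave 1189, 959, 1111, 779 and 1199.6 in neocortex, and 772, 580.4, 472, 789 and 631 in hippocampus (-0.68 ± 0.18, adjusted p = 0.00754). Hippocampal arrays were mostly lower with some overlap, and the nicotine difference of -0.30 ± 0.16, adjusted p = 0.327 was not called. Kcna3, a subunit also known from lymphocytes and microglia, was called in saline mice, with 280.4 (lowest), 382 (median) and 509 (highest) in neocortex, and 134 (lowest), 215 (median) and 346 (highest) in hippocampus (-0.77 ± 0.25, adjusted p = 0.0419). Kcna6 was called in saline mice too, with 495 (lowest), 589 (median) and 766 (highest) in neocortex, and 31.4 (lowest), 311 (median) and 450.4 (highest) in hippocampus (-1.28 ± 0.32, adjusted p = 0.00471). The saline regions overlapped for Kcna3 and were apart for Kcna6, whose lowest hippocampal array, replicate 2, lay far below the others. Without that array the Kcna6 difference was -0.80 (adjusted p = 0.00448). The Kcna3 call was lost on leaving out any 1 of replicates 2, 3, 5 and 6 of hippocampus or replicates 1, 2, 3 and 5 of neocortex (adjusted p of up to 0.119).

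Kcna3 and Kcna6 did not pass with kainate (-0.67 ± 0.28 and -0.50 ± 0.35) or nicotine, where Kcna3 stood at -0.36 (-0.13 without nicotine hippocampus replicate 6) and Kcna6 at -0.32 (-0.19 without nicotine hippocampus replicate 5). All 5 tested Kcna genes lay below 0 in saline mice, on the same saline hippocampal arrays as the drug differences above. With kainate Kcna1 (0.03) and Kcna4 (0.69) lay above 0, and with nicotine Kcna4 (0.24), while the other Kcna genes lay below. The beta subunit Kcnab3 was lower in hippocampus, opposite to Kcnab2. It read 832 (lowest), 1227 (median) and 1623 (highest) in neocortex, and 462 (lowest), 579.9 (median) and 721 (highest) in hippocampus (saline, -1.04 ± 0.20, adjusted p = 0.000376). With kainate it read 855, 1225, 961, 1558 and 1244 in neocortex, and 435, 339, 722, 899.8 and 423 in hippocampus (-1.09 ± 0.22, adjusted p = 0.000589). Regions were apart in saline mice and overlapped in kainate mice, and nicotine mice gave -0.53 ± 0.20, adjusted p = 0.107, not called.

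Other voltage-gated potassium genes were called with 1 or 2 treatments. Kcns1 read 392 (lowest), 632 (median) and 700.0 (highest) in neocortex, and 252 (lowest), 298 (median) and 455 (highest) in hippocampus (saline, -0.83 ± 0.21, adjusted p = 0.00713). With nicotine it read 421 (lowest), 459 (median) and 629 (highest) in neocortex, and 168 (lowest), 299 (median) and 451 (highest) in hippocampus (-0.69 ± 0.21, adjusted p = 0.0325). The regions overlapped in both and stood closer in kainate mice (adjusted p = 0.833), where the difference was -0.12 (-0.24 without kainate hippocampus replicate 3 and -0.00366 without kainate neocortex replicate 5). The nicotine call ended without the 3 arrays that stood apart (adjusted p = 0.0513) and on leaving out any 1 of replicates 1, 2 and 3 of hippocampus or replicates 1, 5 and 6 of neocortex (adjusted p of up to 0.119). Kcnh2 was called in kainate mice, with 1259, 1248, 1182, 1294 and 1573 in neocortex, and 1081, 836, 1032, 688 and 894 in hippocampus and no overlap (-0.54 ± 0.15, adjusted p = 0.0151). The call ended on leaving out any 1 of replicate 4 of hippocampus or replicate 5 of neocortex (adjusted p of up to 0.0641). Kcnc1 was called in kainate mice as well, with 284, 243, 95.0, 85.5 and 154 in hippocampus and the neocortical signals given above (-1.20 ± 0.37, adjusted p = 0.0262). That call was lost on leaving out any 1 of replicates 3 and 4 of hippocampus or replicates 2 and 5 of neocortex (adjusted p of up to 0.09). Kcnc1 was not called in saline mice, -0.14 (-0.36 without saline neocortex replicate 3 and 0.15 without saline hippocampus replicate 1), or nicotine mice, 0.21 (0.07 without nicotine hippocampus replicate 3).

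Of the K2P leak channels, Kcnk2 (TREK1, opened by stretch and lipids) was lower in hippocampus by a small amount. It read 2667 (lowest), 3037 (median) and 3423 (highest) in neocortex, and 2250.2 (lowest), 2452 (median) and 2783 (highest) in hippocampus (saline, -0.28 ± 0.09, adjusted p = 0.0352). With nicotine it read 2797 (lowest), 3305 (median) and 3457 (highest) in neocortex, and 2139 (lowest), 2480.4 (median) and 3189 (highest) in hippocampus (-0.36 ± 0.09, adjusted p = 0.00528). Regions overlapped slightly in both, and kainate gave -0.25 ± 0.10, adjusted p = 0.0956, not called. The saline call was lost on leaving out any 1 of replicates 2, 3, 4 and 6 of hippocampus or replicates 1, 3 and 5 of neocortex (adjusted p of up to 0.0984). The related Kcnk4 (TRAAK) was called in nicotine mice, with 638 (lowest), 998 (median) and 1640.0 (highest) in neocortex, and 493 (lowest), 671 (median) and 822 (highest) in hippocampus (-0.62 ± 0.19, adjusted p = 0.0283). Its call ended without the 3 arrays that stood apart (adjusted p = 0.0599) and on leaving out any 1 of replicates 1 and 3 of hippocampus or replicates 3, 5 and 6 of neocortex (adjusted p of up to 0.103).

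Kcnk3 (TASK1, an acid-sensitive leak channel) was too dim to be tested over all arrays, and was the single untested channel gene called by limma without a filter, in the 3 region comparisons. In saline mice it read 37.0 (lowest), 245 (median) and 372 (highest) in neocortex, and 13.0 (lowest), 21.2 (median) and 60.9 (highest) in hippocampus. Kainate mice gave 110.1, 247, 140.1, 84.2 and 184 in neocortex, and 29.5, 20.2, 25.5, 20.4 and 64.1 in hippocampus, and nicotine mice 47.4 (lowest), 136 (median) and 223 (highest) in neocortex, and 14.2 (lowest), 23.7 (median) and 43.8 (highest) in hippocampus. Hippocampal signals lay near the bottom of the scale with every treatment, and 1 array of each region overlapped in saline mice. The unfiltered differences were -2.40 ± 0.38, adjusted p = 2.51e-05 (saline), -1.80 ± 0.42, adjusted p = 0.00326 (kainate) and -1.73 ± 0.38, adjusted p = 0.00229 (nicotine).

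Scn1a encodes Nav1.1, the sodium channel of fast-spiking interneurons and the gene affected in Dravet syndrome. Saline mice gave 1473 (lowest), 2412 (median) and 3368 (highest) in neocortex, and 1396 (lowest), 1578 (median) and 2039.9 (highest) in hippocampus. With kainate it read 3334, 3090.1, 3699, 2827 and 1273 in neocortex, and 1952, 1443, 1189.9, 1614 and 1151 in hippocampus, and with nicotine 2013 (lowest), 3608 (median) and 3733 (highest) in neocortex, and 1288 (lowest), 1584 (median) and 2251 (highest) in hippocampus. The lowest neocortical array of each group was 1 of the 3 that stood apart, and hippocampal arrays lay below all the other neocortical ones. With all arrays the differences were -0.59 ± 0.20, adjusted p = 0.0623 (not called), -0.89 ± 0.22, adjusted p = 0.00543 and -1.03 ± 0.20, adjusted p = 0.000463. Without those 3 arrays they were -0.73, -1.15 and -1.17, with adjusted p of 0.000414, 1.88e-06 and 2.43e-07, and Scn1a was then called with all 3 treatments. A second Scn1a probe set was called with all 3 on all arrays (-0.83, -1.19 and -0.91). Scn8a, the other tested sodium channel gene, was not called, and stood at -0.10 (-0.16 without saline neocortex replicate 5 and 0.03 without saline hippocampus replicate 6) in saline, 0.09 (0.05 without kainate hippocampus replicate 3 and 0.16 without kainate neocortex replicate 3) in kainate and 0.20 in nicotine mice.

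**Figure D4:**
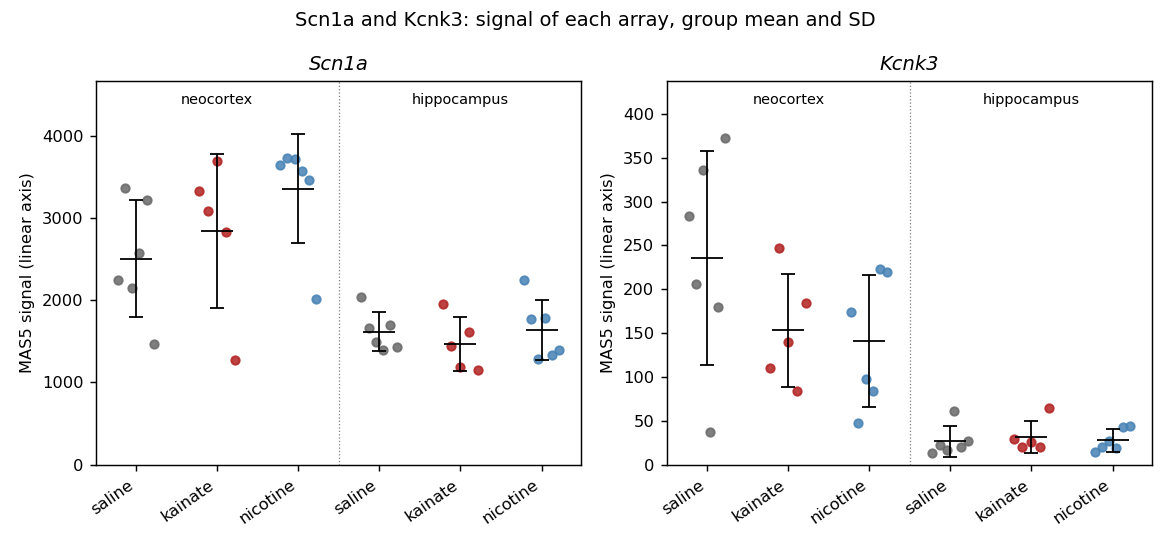
MAS5 signal (linear axis) of Scn1a (left) and Kcnk3 (right) on each array, by region and treatment; points are arrays, the long bar is the group mean and the whiskers are 1 SD. The low neocortical Scn1a points at 1473, 1273 and 2013 are the 3 arrays that stood apart, and hippocampal Kcnk3 stays at or below 64.1.

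Among calcium channel pores, Cacna1a was called in saline and kainate mice. Saline mice gave 1728 (lowest), 2515 (median) and 2769 (highest) in neocortex, and 825 (lowest), 1544 (median) and 2205 (highest) in hippocampus (-0.70 ± 0.15, adjusted p = 0.00118). Kainate mice gave 2228, 1868, 1848, 2285 and 1822 in neocortex, and 956, 1339.6, 1369, 1191 and 1069 in hippocampus (-0.76 ± 0.17, adjusted p = 0.00112). The regions overlapped in saline and were apart in kainate mice, and nicotine mice stood at -0.33 ± 0.15, adjusted p = 0.212. Cacna1g, a T-type pore that opens near rest, was called with kainate (848, 557, 688, 517 and 729.6 in neocortex, and 435, 390.4, 136, 526 and 529.5 in hippocampus, -0.81 ± 0.27, adjusted p = 0.0392) and nicotine (-0.76 ± 0.25, adjusted p = 0.0416). In saline mice it read 652 (lowest), 674 (median) and 872 (highest) in neocortex, and 402 (lowest), 545 (median) and 615 (highest) in hippocampus, with no overlap, and was not called (-0.48 ± 0.25, adjusted p = 0.26). The kainate difference was -0.48 (adjusted p = 0.211) without kainate hippocampus replicate 3, the low array, and its call ended without the 3 arrays that stood apart (adjusted p = 0.0817) and on leaving out any 1 of replicates 2 and 3 of hippocampus or replicates 1, 3 and 5 of neocortex (adjusted p of up to 0.211). The nicotine call ended without the 3 arrays that stood apart (adjusted p = 0.0798) and on leaving out any 1 of replicates 2, 4 and 5 of hippocampus or replicates 1, 2, 4, 5 and 6 of neocortex (adjusted p of up to 0.173).

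Auxiliary calcium channel subunits differed in direction. Cacna2d1, the alpha2delta subunit that gabapentin binds, was lower in saline hippocampus, with 1066 (lowest), 1349 (median) and 1679 (highest) in neocortex, and 582 (lowest), 828 (median) and 1280.2 (highest) in hippocampus and overlapping regions (-0.66 ± 0.19, adjusted p = 0.0207). That call ended without the 3 arrays that stood apart (adjusted p = 0.0545) and on leaving out any 1 of replicates 1 and 2 of hippocampus or replicates 1 and 6 of neocortex (adjusted p of up to 0.0757). Cacnb2, a cytoplasmic beta subunit, was higher in kainate hippocampus, with 864, 955, 1522, 1429.6 and 1194 in neocortex, and 2061, 1505, 2438, 2239.7 and 1436 in hippocampus and some overlap (0.69 ± 0.21, adjusted p = 0.0236). Its call ended on leaving out any 1 of replicates 1, 3 and 4 of hippocampus or replicates 1 and 2 of neocortex (adjusted p of up to 0.0877). Neither passed with the other treatments.

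The remaining families had no called gene between regions in saline mice. All 6 chloride channel genes lay below 0 there, from -1.05 in Clcn1 to -0.04 (-0.10 without saline hippocampus replicate 1 and 0.06 without saline hippocampus replicate 2) in Clcn4, with a smallest adjusted p of 0.0872. Clcn3, Clcn5 and Clcn7 also crossed 0 on leaving out single arrays. Both Hcn genes lay below 0, Hcn2 at -0.30 and Hcn3 at -0.20 (-0.11 without saline hippocampus replicate 3). The 4 genes of the calcium-activated and Slo potassium channel family ran from -0.41 (-0.25 without saline hippocampus replicate 1) in Kcnn1 to 0.32 (0.14 without saline neocortex replicate 1) in Kcnn4. The Kv4 gene Kcnd2 stood at 0.56. Without the 3 arrays that stood apart, 14, 13 and 7 channel genes were called with saline, kainate and nicotine, and the 6 called with all of them were Cacng2, Kcnab2, Kcne1l, Kcnj4, Kcnj9 and Scn1a.

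Some region calls also ended under other settings, with these adjusted p values from limma. Fitted on the arrays of 1 treatment alone, they were Kcna3 (0.0652), Kcna6 (0.0654) and Kcnk2 (0.0545) in saline mice and Cacna1g (0.115) in kainate mice. In nicotine mice they were Cacna1g (0.0713), Kcnh1 (0.0909) and Kcns1 (0.0788). The calls of these genes were made with the spread estimated over all 34 arrays. Median centring ended the saline calls of Kcna3 (0.0597) and Kcnk2 (0.127) and the nicotine call of Cacna1g (0.0501), and quantile normalization those of Kcna3 (0.064) and, with nicotine, Cacna1g (0.0576). Without the filter Kcna3 (0.0617), Cacna1g with kainate (0.054) and nicotine (0.0588) and Kcnh1 with nicotine (0.0514) were not called. Array weights ended Cacna1g with kainate (0.0681) and Kcnh1 with nicotine (0.0553), and the control cluster as a block Kcna3 (0.0518).

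**Figure D5:**
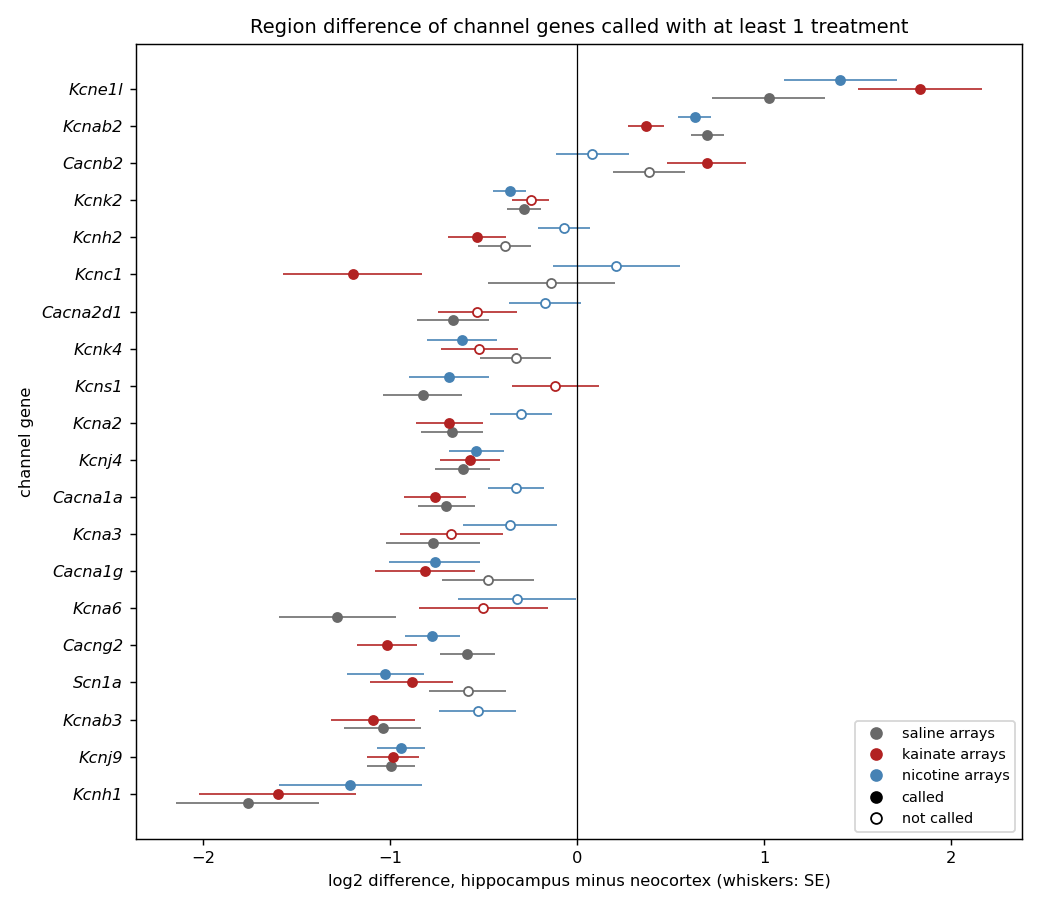
Log2 difference in signal + 16 (hippocampus minus neocortex, x axis) for the 20 channel genes called with at least 1 treatment (y axis), in saline, kainate and nicotine mice; filled points have an adjusted p under 0.05, open points do not, and whiskers are 1 SE. Kcne1l and Kcnab2 lie to the right of 0 in all 3, and Kcnj9 sits between -0.995 and -0.94.

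A further 3 related gene lists give the surroundings of the channels. Of ion pumps and exchangers, which restore the gradients that channels spend, Fxyd1 rose (log2 difference 0.87, adjusted p = 2.35e-07) and Atp2a2 fell (-0.35, adjusted p = 0.0358) of 11 tested genes in kainate hippocampus. Of intracellular calcium release and TRP channels, Ryr1 was lower (-0.76) of 10 tested. Of channel partners and anchoring proteins, 0 of 16 were called. Between saline hippocampus and saline neocortex, pumps and exchangers were higher for Slc8a1 (0.45) and Fxyd1 (0.63) and lower for Atp2a2 (-0.28), Atp2b2 (-1.33), Slc12a5 (-0.61) and Fxyd7 (-0.91), of 11. Calcium release and TRP channels were higher for Ryr1 (0.75), Ryr3 (1.16) and Trpc4 (1.24), of 10. Partners were higher for Dpp6 (0.44) and Fgf11 (0.84) and lower for Fgf12 (-1.24) and Dlg1 (-0.92), of 17. In the 3 other drug against saline comparisons none of these lists had a called gene.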

How the data were processed

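Total RNA of 34 brain samples was hybridised to Affymetrix arrays with 12488 probe sets. The values the authors deposited are MAS5 signal intensity values on a linear scale. MAS5 is named in the submitters' processing notes and its version is not given in the sources used here. The 2% trimmed mean of each array was near 1000.6 in the values themselves, and no further scaling was applied. Control probe sets (66) were removed, which left 12422, of which 10833 had 1 gene symbol, 396 several and 1193 none. Symbols came from the platform annotation, and all 68 channel genes matched RefSeq by gene identifier.

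Intensities were taken to log2(signal + 16), probe sets under the 30th percentile were left out, and limma 3.58.1 in R 4.3.3 (lmFit, eBayes with a trend) was fitted to the 17 arrays of a region, or to all 34 for region differences and interactions. Adjusted p values are Benjamini-Hochberg over 8695 probe sets in each of 11 comparisons, and a gene was called under 0.05. On simulated data for kainate against saline hippocampus, 73% of 100 probe sets changed by 1 and 40% of 100 changed by 0.5 on the log2 scale were recovered. The fit of 8695 probe sets gave 1 false call at each size. These shares hold for the simulated settings, with no separate figure for channel genes. Array number limits the precision, and p values weigh a mean difference against the spread between these arrays.

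The channel genes and the gene lists were chosen with earlier results of these data known. The rule for genes named with values took those called in a comparison, up to 12 each, the 3 with the smallest p where none was called, and the gene of each family whose probe set had the highest mean signal. Called genes past the 12 (Kcna3 and Kcnk2 in saline, Kcnc1 and Cacna1g in kainate mice, between regions) and further members at the ends of family ranges were added after their values were seen. Marker lists covered neurons, interneurons, dentate granule, CA pyramidal, oligodendrocyte, astrocyte, microglia, endothelial, choroid plexus, and thalamus and striatum. Replicate numbers were checked for pairing. Only kainate and nicotine hippocampus had deviations that correlated over 0.1 in every same-numbered pair (0.12 to 0.28, 5 pairs), taken from the data and not from the labels. There the replicate number as a block gave the same 2 calls. Alternatives changed the scaling, pseudocount, filter, arrays in the fit, weights, block and single arrays.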

Additional observations from a re-analysis of the deposited data

Results flagged for a closer look

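Single arrays that lay far from the others of their group, by the gap to the nearest array relative to the range of the group, were sought for the 31 channel genes named with values. They were found in 18 of 186 groups (9.68%), while chance gives about 1 in 20. Among all 50 tested channel genes the count was 30 of 300 (10%).

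High arrays were found for 6 genes. Cacna1a read 2339 on nicotine neocortex replicate 1, with the others between 1792 and 1980. Clcn3 read 9215 on nicotine hippocampus replicate 1, Kcnab2 9157 on nicotine hippocampus replicate 2, and Kcnab3 1403 on nicotine neocortex replicate 6. Kcne1l read 476 on kainate neocortex replicate 5 and Scn8a 3255 on kainate hippocampus replicate 3. The Kcne1l array belongs to the 3 neocortical arrays that stood apart, and that gene was not called in neocortex.

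Low arrays were more frequent. Cacna1g read 136 on kainate hippocampus replicate 3, with the others from 390.4 to 529.5, and 146 on nicotine hippocampus replicate 4. Kcna6 read 31.4 on saline hippocampus replicate 2, with the others from 265 to 450.4, and this array enters every difference of that gene against saline hippocampus. Kcna3 read 132 on nicotine hippocampus replicate 6, Kcns1 392 on saline neocortex replicate 2 and Cacna2d1 703 on nicotine neocortex replicate 2. Kcnj4 read 1767 on kainate neocortex replicate 1 and 1100.1 on saline hippocampus replicate 1, and Scn8a 1791 on saline hippocampus replicate 6. Scn1a read 1273 on kainate neocortex replicate 5 and 2013 on nicotine neocortex replicate 6, and Kcnk2 read 2797 on the latter array. Of the 18 groups, 3 had their far value on nicotine neocortex replicate 6 and 2 on kainate neocortex replicate 5, both among the arrays that stood apart.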

How the results depend on the processing

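Leaving aside single arrays, of 635 refits of single named genes, 607 kept their direction and their side of the threshold, 28 lost the call and 0 changed direction. The counts of called channel genes stayed within 1.5 times, with these exceptions. Quantile normalization left 1 called gene in kainate against nicotine hippocampus, where the Kcnab2 adjusted p was 0.0522. Leaving out the 3 neocortical arrays that stood apart, chosen after seeing the data, left 7 in nicotine mice between regions. Leaving out 1 array at a time gave 1 to 2 genes in kainate against saline hippocampus and in kainate against nicotine hippocampus, 11 to 14 between regions in saline mice, 11 to 15 in kainate mice and 7 to 11 in nicotine mice (7 without nicotine neocortex replicate 5 or 6), and 0 elsewhere. Over all probe sets, median centring raised the calls of kainate against saline hippocampus from 243 to 443, and array weights those of kainate against nicotine neocortex from 3 to 8.

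With the replicate number as a block, 2 genes were called in kainate against saline hippocampus, 17, 14 and 11 between regions in saline, kainate and nicotine mice, and 0 in the other drug comparisons with saline, in kainate against nicotine neocortex and in the interactions. Outside kainate against nicotine hippocampus not every same-numbered pair correlated over 0.1, and no comparison had every array correlate best with its own number.

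Arrays formed 2 clusters by 33 control probe sets (mean silhouette 0.172). Within them the kainate minus saline hippocampal difference was 2.50 and 1.46 for Kcne1l and -0.50 and -0.22 for Kcnab2, and the saline region difference of Kcne1l was 0.39 and 1.85. The number of arrays and signals near the filter limit what could be seen in dim genes.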
